A study of Rattus norvegicus with 24 samples.

Results

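The genes described here are 9 members of the integrated stress response, Atf3, Atf4, Atf5, Ddit3, Ddit4, Trib3, Chac1, Asns and Sesn2, in the tibialis anterior muscle of rats given daily resistance training. They were chosen by name, as the rows of the transcript table that carry these gene symbols, and their 13 transcripts were summed to 1 value per gene. They are 9 of 15273 genes in the table. Adult male Wistar rats with an implanted pulse generator received 1 session a day of SpillOver training, electrically evoked contractions of the dorsiflexors against partly activated plantarflexors, in the left hind limb. Each of 12 rats gave a trained left muscle and an unstimulated contralateral right muscle, with 3 rats after each of 2, 10, 20 and 30 days of training. All rats had the generator in the abdomen, while the electrodes and the incision in the leg were on the left side, so the contralateral muscle shares the animal and the abdominal implant but not the leg surgery, which cannot be told apart from training in these samples. Muscles were taken 1 h after the last bout, so every trained value holds a response to that bout as well as to the days of training before it, and the design cannot separate them.

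The integrated stress response is a switch on protein synthesis. The kinases PERK, GCN2, PKR and HRI phosphorylate the initiation factor eIF2α when a cell meets unfolded protein in the endoplasmic reticulum, lack of amino acids, double-stranded RNA or loss of haem and mitochondrial stress, and general translation then falls while the mRNA of the transcription factor ATF4 is translated more. ATF4 and its partners raise genes for amino acid supply, for further transcription factors such as ATF3 and CHOP (the product of Ddit3), and for the phosphatase subunit GADD34, which reverses the switch. The Atf4 mRNA level is therefore only part of ATF4 activity, and protein was not measured here.

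The deposit names its transcript values as normalized counts, but every library sums to the same total, so they were read here as of the TPM type, which would make them per length. That reading comes from the totals alone, so levels of different genes are not ranked here. Values were divided by 1 factor per library (0.778 to 1.14). A difference is the log2 fold change on the scale log2(value + 1), which understates the change of genes with low values, with its standard error (SE) from a limma fit of 3 trained against all 12 contralateral muscles. A gene is said to have risen or fallen where the Benjamini-Hochberg adjusted p over 11196 tested genes was under 0.05. The 4 comparisons share the 12 contralateral muscles and are therefore not independent of each other. Transcripts of the mitochondrial genome took 23.4% to 43.9% of the summed values of a library, with the highest shares in the trained muscles of the 30-day group and in 1 contralateral muscle of that group. Without the rescaling the median log2 fold change of all genes at 30 days was -0.18, against -0.01 with it. Without it 647 genes were higher and 2590 lower at 30 days, against 1245 and 1059 with it. At 2 days these counts were 2132 and 731 against 1728 and 1507, at 10 days 2096 and 682 against 1746 and 1494, and at 20 days 1163 and 745 against 1314 and 1079.

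Promoter sequence shows one way in which the members differ. RefSeq promoters (assembly GRCr8, 250 bases before to 50 bases after the annotated start) were matched by symbol for 8 members, Atf4, Atf5, Ddit3, Ddit4, Trib3, Chac1, Asns and Sesn2. They were searched on both strands for the C/EBP-ATF response element TGATGNAA, to which ATF4 with a C/EBP partner binds. The second search was for TGANTCA, a loose form of the AP-1 site with any base in the middle. Fos, Jun and some ATF dimers bind AP-1 sites. The first was found in 2 of the 8, Chac1 and Trib3, and in 3.98% of all 33469 promoters. The second was found in Atf5 and Ddit3, as TGACTCA in both, and in 7.33% of all promoters, where any middle base was counted. The cAMP response element TGACGTCA and the ER stress response element were found in 0 of the 8, and in 1.83% and 0.0657% of all promoters. The 4 stretches with a match are printed in the direction of the gene with the match in capitals. Atf5 holds the same AP-1 match as Ddit3 but was called higher at no time point. Trib3, with the same element as Chac1, was below the filter on low values. A link between these letters and the direction of change was not tested. The matches in Chac1 and Trib3 lie on the opposite strand to the gene and so are printed as the reverse complement of the letters searched. They begin 167 and 21 bases before the start of Chac1 and Trib3, and those in Ddit3 and Atf5 begin 241 and 138 bases before it.
Chac1, chr3:126795924-126796011, plus strand: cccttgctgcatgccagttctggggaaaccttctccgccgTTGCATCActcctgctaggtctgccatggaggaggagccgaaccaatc
Trib3, chr3:161275534-161275594, minus strand: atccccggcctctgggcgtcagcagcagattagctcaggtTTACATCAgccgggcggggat
Ddit3, chr7:65001445-65001500, plus strand: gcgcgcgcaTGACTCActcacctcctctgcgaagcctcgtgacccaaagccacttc
Atf5, chr1:104434887-104434973, minus strand: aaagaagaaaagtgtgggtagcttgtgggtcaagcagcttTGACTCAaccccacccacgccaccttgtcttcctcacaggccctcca
A match is a run of letters in these windows and not a measured binding site. Bases further upstream were not searched, so a gene without a match here may hold one outside the window.

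The members did not move as a block. Atf3 and Ddit3 rose at all 4 time points and in all 12 rats, Chac1 fell at all 4 time points and in all 12 rats, and Atf4 rose slightly after 2 days and fell after 10, 20 and 30 days. Of the 9 members, 7 had values of 1 or more in 3 or more libraries and were tested, while Trib3 and Asns stayed below that level in every library. Of these 7, 4 passed the test after 2 days (3 higher and 1 lower), where 28.9% of all tested genes passed. After 10 days 5 passed (2 higher and 3 lower), where 28.9% of all genes passed and 15.6% and 13.3% were higher and lower. After 20 days 4 passed (2 higher and 2 lower) and after 30 days 5 (2 higher and 3 lower), where 21.4% and 20.6% of all genes passed and 9.64% and 9.46% were lower and 11.7% and 11.1% higher. With each rat as a block 3, 4, 4 and 4 members passed, where 21.6%, 20.1%, 17.4% and 12.3% of all genes did. The median log2 fold change of the 7 was 0.09, -0.32, -0.05 and -0.40 in order of time, beside -0.01, -0.03, -0.03 and -0.01 over all tested genes.

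**Figure D1:**
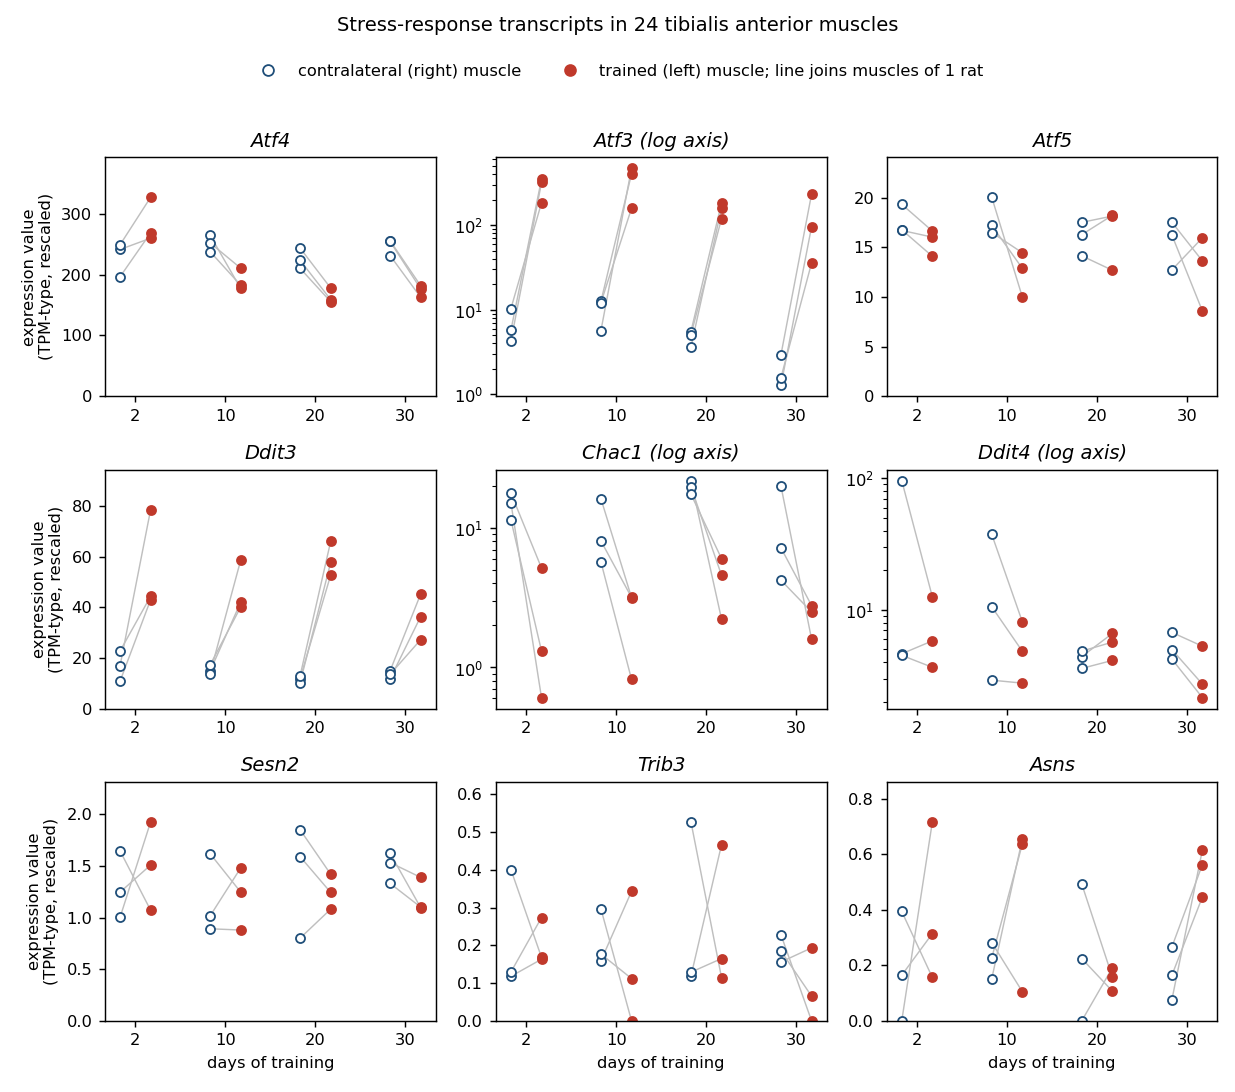
Expression values of the 9 members in each of 24 muscles, with days of training on the x axis and the TPM-type value on the y axis (log axis for Atf3, Chac1 and Ddit4), and a line joining the trained and contralateral muscle of each rat. All 12 lines rise for Atf3 and Ddit3 and all 12 fall for Chac1, while those of Atf4 rise in the 3 rats of the 2-day group and fall in the other 9.

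Atf3, an ATF/CREB family factor that is induced quickly by many stresses, had the largest difference of the members at every time point. Its value in the contralateral muscles ran from 1.28 to 12.6 with a median of 5.30. After 2 days of training the 3 trained muscles had values of 320.5, 184 and 350.4. After 10 days they had 471, 404 and 158. After 20 days the values were 160.2, 183 and 119.8, and after 30 days they were 95.9, 233 and 35.7. The lowest trained muscle thus stood above the highest contralateral one, and the trained and contralateral groups did not overlap at any time point. Trained muscles of all 3 rats lay above the whole contralateral range for 8.57%, 10.0%, 8.23% and 7.48% of all tested genes at the 4 time points.

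Within rats, the trained muscle held 13.02 to 83.2 times as much Atf3 as the contralateral one, with a median of 38.6 times over 12 rats. The log2 fold change was 5.53 (SE 0.49) after 2 days, with an adjusted p of 8.2e-09, and 5.71 (SE 0.49) after 10 days. It was 4.68 (SE 0.49) after 20 days and 3.98 (SE 0.49) after 30 days, where the adjusted p was 2.7e-06. The value at 30 days was 3.32 without trained replicate 2 and 4.66 without trained replicate 3. Atf3 passed at all 4 time points under each of 23 other settings of the analysis. The main one of its 2 transcripts lies on chromosome 13 (Rnor_6.0, 109817895 to 109849633, minus strand). It held 97.2% to 98.7% of the gene's value in each trained muscle, so most of the summed rise lay in it. The other transcript was higher in the trained muscles too, at 0.999 to 8.91 against at most 0.482 in the contralateral ones.

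The estimated change in the Atf3 response from 2 to 30 days depended on whether each rat's contralateral muscle was taken into account. On the rescaled values it passed in neither case. Between trained muscles alone, the difference between 30 and 2 days was -1.55 (95% interval -2.82 to -0.28), which did not pass (limma adjusted p = 0.090). The pooled contralateral muscles cancel out of this difference. On the values as deposited the difference passed (-1.89, adjusted p = 0.024). The contralateral muscles of the 30-day rats had the lowest Atf3 values of all, at 1.28, 2.94 and 1.58, while those of the other 9 rats ran from 3.63 to 12.6. The F test for a difference among the 4 contralateral groups did not pass (adjusted p = 0.39), and 0.152% of all tested genes passed it. With each trained muscle set against that of its own rat, the log2 fold change at 30 days was 5.04, beside 5.22 at 2 days, and the difference between these was -0.18 (95% interval -1.58 to 1.22).

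Ddit3, which encodes CHOP, a C/EBP family factor raised by ATF4 and known from endoplasmic reticulum stress, was the other member that rose throughout. The contralateral muscles had values from 10.2 to 22.7 with a median of 13.7. After 2 days the trained muscles had 78.6, 44.3 and 43.0. The values were 41.9, 40.04 and 58.5 after 10 days, 52.7, 57.7 and 66.0 after 20 days, and 36.3, 45.2 and 27.2 after 30 days. All 12 trained muscles were above all 12 contralateral ones, and the trained muscle held 1.95 to 5.67 times the value of the contralateral muscle of the same rat. In order of time, 8.57%, 10.0%, 8.23% and 7.48% of all tested genes had all 3 trained muscles above the contralateral range. The share with all 12 above it was not computed.

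Ddit3 had a log2 fold change of 1.86 (SE 0.19) after 2 days and 1.66 (SE 0.19) after 10 days. It was 2.00 (SE 0.19) after 20 days and 1.29 (SE 0.19) after 30 days, with adjusted p-values of 6.45e-08 and 4.2e-05. Ddit3 passed at each time point under all 23 other settings. No difference between time points passed on the rescaled values, the nearest by its raw p being 30 against 20 days (-0.71, 95% interval -1.21 to -0.20, adjusted p = 0.62), while on the values as deposited 30 against 2 days passed (-0.90, adjusted p = 0.013). The 2 transcripts of Ddit3 start close together on chromosome 7 (Rnor_6.0, 70580252 and 70580198, plus strand), and how reads were shared between them is uncertain. The share of the one that starts first ran from 22.2% to 72.5% in the trained muscles and from 0.00178% to 44.3% in the contralateral ones, so the summed value is the one to read.

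Atf4, the factor at the centre of the response, had smaller differences than Atf3, Ddit3 and Chac1. The contralateral muscles had values from 197 to 265 with a median of 243. The trained muscles had 260.1, 327 and 269 after 2 days, so 2 of 3 were above the contralateral range. They had 177, 211 and 183 after 10 days, with 2 of 3 below that range. After 20 days the values were 178, 156 and 159, and after 30 days they were 182, 177 and 163, all below the lowest contralateral muscle, as was the case for 4.81% and 6.08% of all tested genes. The trained muscle was the higher one in 3 of 3 rats after 2 days and the lower one in 9 of 9 rats after that.

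The log2 fold change of Atf4 was 0.26 (SE 0.09) after 2 days, with a limma adjusted p of 0.0425. This call did not hold under all settings, and the adjusted p was 0.052 with each rat as a block, 0.38 without trained replicate 2 and 0.069 without trained replicate 3, in a range of 0.0045 to 0.38 over 23 settings. The log2 fold change was -0.32 (SE 0.09) after 10 days, -0.53 (SE 0.09) after 20 days and -0.45 (SE 0.09) after 30 days. The fall at 10 days was lost on the values as deposited (-0.20, adjusted p = 0.17) and without trained replicate 1 or 3 (adjusted p of 0.089 and 0.057), in a range of 0.0073 to 0.17, while the falls at 20 and 30 days passed under all 23 settings.

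Of the 7 tested members, Atf4 alone differed among the 4 trained groups by the F test as fitted here (limma adjusted p = 0.00031), which 12% of all tested genes passed. Atf3 and Ddit3 passed it too on the values as deposited (adjusted p of 0.041 and 0.029), and Atf3 did so in the gene-level table and without trained replicate 2 of the 30-day group (adjusted p of 0.011 and 0.048). From 2 to 10, 20 and 30 days Atf4 fell by 0.58, 0.79 and 0.71 on the log2 scale, with adjusted p-values of 0.011, 0.00025 and 0.00033. The later steps, from 10 to 20 and 30 days and from 20 to 30, were passed by 0 members and by 0.17%, 3.94% and 0.0357% of all tested genes, while the first 3 were passed by 1.93%, 8.05% and 15% of all tested genes. With each rat as a block the first of them did not pass (-0.72, adjusted p = 0.10), nor without trained replicate 2 of the 2-day group or replicate 1 of the 10-day group (-0.48 and -0.53), while the other two passed with the block (-0.78 and -0.82). Its main transcript (Rnor_6.0, chromosome 7, 121480723 to 121482773, plus strand), held 99.7% of the gene's mean value.

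**Figure D2:**
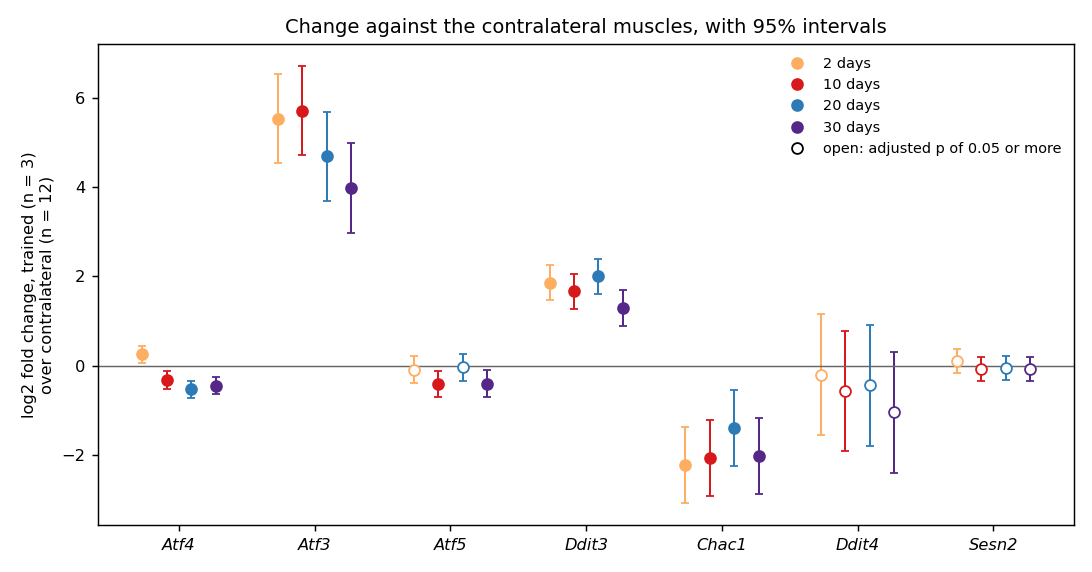
Log2 fold change of the 7 tested members at 2, 10, 20 and 30 days, trained (n = 3) over contralateral (n = 12) muscles, with 95% intervals; open points did not pass at an adjusted p of 0.05. Atf3 lies between 3.98 and 5.71 and Ddit3 between 1.29 and 2.00, Chac1 lies between -2.23 and -1.41, and Atf4 crosses from 0.26 to -0.53.

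Atf5, a close relative of ATF4 that is likewise controlled at translation and is linked to mitochondrial stress, was called lower at 10 and 30 days, but not with each rat as a block. Its values ran from 12.7 to 20.1 in the contralateral muscles and from 8.59 to 18.2 in the trained muscles, and the 2 ranges overlapped at every time point. The log2 fold change was -0.09 and -0.04 after 2 and 20 days and did not pass. It passed after 10 days (-0.41, SE 0.14, limma adjusted p = 0.035) and after 30 days (-0.40, SE 0.14, adjusted p = 0.047). Both calls were lost with each rat as a block (adjusted p of 0.075 and 0.34), and they were lost under 6 and 13 of 23 settings, with ranges of 0.015 to 0.25 and 0.0094 to 0.51. After 10 days the trained muscle was lower in 3 of 3 rats, and after 30 days in 2 of 3.

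Chac1, a classical ATF4 target that encodes an enzyme breaking down glutathione, went the opposite way to Atf3 and Ddit3. The contralateral muscles had values from 4.22 to 21.9 with a median of 15.7. After 2 days the trained muscles had 5.17, 0.608 and 1.31, and after 10 days they had 3.17, 0.822 and 3.18. The values were 2.22, 4.58 and 6.03 after 20 days and 2.78, 2.50 and 1.60 after 30 days. All trained muscles were below the contralateral range after 10 and 30 days, as was the case for 8.15% and 6.08% of all tested genes, while 1 of 3 after 2 days and 2 of 3 after 20 days lay within it. After 2 days 6.18% of all tested genes had all 3 below.

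The contralateral muscle held 1.69 to 25 times as much Chac1 as the trained muscle of the same rat, with a median of 4.71 times. A trained muscle lower than the contralateral one in all 12 rats was seen for 6.57% of all tested genes, and a higher one in all 12, as for Atf3 and Ddit3, for 8.45%. Chac1 had a log2 fold change of -2.23 (SE 0.41) after 2 days and -2.07 (SE 0.41) after 10 days. It was -1.41 (SE 0.41) after 20 days and -2.03 (SE 0.41) after 30 days, with adjusted p-values of 0.016 and 0.00099. The fall at 20 days did not pass without trained replicate 1 (-1.09, limma adjusted p = 0.14, in a range of 0.0041 to 0.14 over 23 settings), and the other 3 passed under all 23.

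Ddit4, which encodes REDD1, an inhibitor of the growth kinase mTORC1 that glucocorticoids and low oxygen also raise, did not pass at any time point. The log2 fold change was -0.20, -0.57, -0.44 and -1.05 in order of time, each with an SE of 0.65, so that the interval at 2 days ran from -1.55 to 1.15. The values varied most among the contralateral muscles. Those of rat 2 of the 2-day group and rat 1 of the 10-day group had values of 96.3 and 37.5, while the other 10 ran from 2.92 to 10.6. The trained muscles of the same rats also had the highest trained values, 12.6 and 8.11, and the others ran from 2.15 to 6.62. Left out one at a time, a choice made after seeing the data, these 2 muscles gave a log2 fold change at 2 days of 0.11 and -0.0082, and Ddit4 passed at no time point under any of 23 settings.

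**Figure D3:**
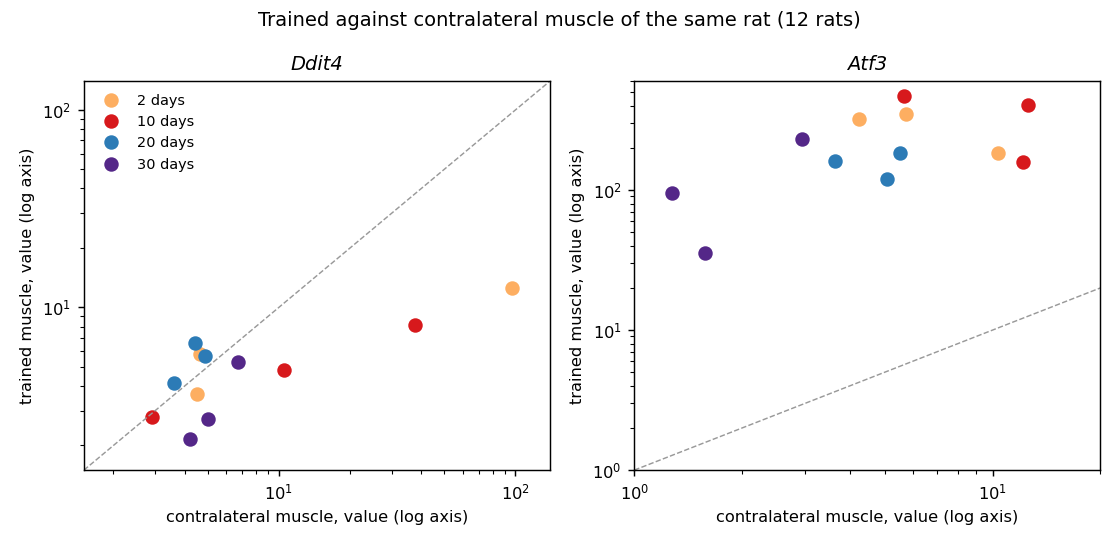
Value of Ddit4 (left) and Atf3 (right) in the trained muscle against the contralateral muscle of the same rat, on log axes, with 1 point per rat and a dashed line of equality. Contralateral Ddit4 stands at 96.3 and 37.5 in 2 rats and at 10.6 or less in the others, and all 12 Atf3 points lie far above the line with the 3 contralateral values of the 30-day rats at the left.

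Sesn2, a sestrin that restrains mTORC1 when leucine is short, had values near 1 and did not pass. Its values ran from 0.800 to 1.85 in the contralateral and from 0.879 to 1.93 in the trained muscles. The log2 fold changes of 0.09, -0.09, -0.05 and -0.08 had an SE of 0.13. Trib3, a pseudokinase that dampens ATF4 and CHOP, had values of at most 0.527 in the contralateral and 0.467 in the trained muscles. Asns, the asparagine synthetase that is among the best known ATF4 targets, had at most 0.493 and 0.717. Both were below the filter and were not tested. Fitted without the filter on low values, Asns passed after 30 days only (0.37, limma adjusted p = 0.048, values of 0.447 to 0.616 in the trained and of 0 to 0.493 in the contralateral muscles), where this setting also changes how many genes are tested.

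Other genes of the pathway were taken as lists with earlier results of these data known. In order of time 15.4%, 15.6%, 11.7% and 11.1% of all tested genes were higher and 13.5%, 13.3%, 9.64% and 9.46% lower, and the counts of each list stand beside those shares as a description. Among 8 genes for the eIF2α kinases, the phosphatase subunits and their substrate, 7 were tested, and Ppp1r15a rose at each time point. It encodes GADD34, the inducible subunit that returns eIF2α to its unphosphorylated form. Its values were 13.2 to 30.3 in the contralateral muscles and 34.1 to 80.8 in the trained ones, with no overlap. Trained muscles of all 3 rats lay above the contralateral range for 8.57%, 10.0%, 8.23% and 7.48% of all tested genes in order of time. The log2 fold change of Ppp1r15a was 1.66, 1.59, 1.46 and 1.08 (SE 0.17). Eif2ak1, the kinase HRI, fell after 2 and 10 days (-0.33 and -0.36), but neither call held with each rat as a block (adjusted p of 0.0505 and 0.18). Transcripts of PKR (Eif2ak2) and GCN2 (Eif2ak4), the constitutive subunit Ppp1r15b, Eif2s1 and Eif2b5 passed at no time point, and Eif2ak3, which encodes PERK, was below the filter. The median log2 fold change of the 7 was 0.13, 0.06, -0.0042 and 0.07.

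Of 13 genes for serine, one-carbon and related enzymes, 6 were tested, and the biosynthetic enzymes Phgdh and Psat1 were among those below the filter. Mthfd2, a mitochondrial folate enzyme, had 1.02, 1.32 and 1.21 in the trained muscles after 2 days and under 1 in every other muscle. It passed the filter through those 3 muscles alone, so its log2 fold changes of 0.86 and 0.63 after 2 and 10 days are given as values and not as support for a rise. Gpt2, a mitochondrial alanine transaminase, fell at each time point, by 0.43 on the log2 scale after 2 days and by 1.42, 1.46 and 1.47 after 10, 20 and 30 days. Its values were 30.9 to 51.0 in the contralateral muscles and 11.9 to 17.6 in the trained muscles from 10 days on. The list, Mthfd2 included, had 1 gene higher and 1 lower after 2 and 10 days and 1 lower after 20 and 30 days, and with each rat as a block 2 were lower after 2 days. For 6 genes, 1 called is near the shares over all tested genes.

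Of 9 amino acid transporters 3 were tested. Slc7a11 and Slc7a3 had no row. Slc7a5, Slc7a1, Slc6a9 and Slc1a4 were below the filter, which does not show that they were unchanged, and are given as values alone. In that order their highest contralateral values were 0.199, 0.275, 0.416 and 0.401. Their trained values ran from 0.0732 to 2.11, 0.454 to 0.976, 0.101 to 0.451 and 0.205 to 1.23. Slc38a2, the sodium-coupled transporter SNAT2, rose at each time point (0.68, 0.81, 0.52 and 0.73, SE 0.11), with 99 to 149 in the trained and 61.1 to 80.7 in the contralateral muscles. Slc1a5, a glutamine carrier, had log2 fold changes of 0.63, 0.75, 0.68 and 0.47, but its values were at most 1.89, and it passed the filter through trained muscles, 11 of 12 of which reached 1 against 1 of 12 contralateral ones, so these are given as values alone. Slc3a2, the heavy chain shared by several exchangers, fell after 10, 20 and 30 days (-0.52, -0.54 and -0.71), and the call at 20 days was lost with each rat as a block (adjusted p = 0.094).

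Among 6 secreted and surface stress genes 4 were tested. Gdf15, a circulating stress cytokine, was at or below 0.249 in the contralateral muscles and had 3.69, 5.23 and 1.07 in the trained muscles after 2 days. Its log2 fold changes were 1.89, 1.03, 0.91 and 0.44 (SE 0.23) in order of time, given as values alone since it passed the filter through 5 trained muscles and 0 contralateral ones. Vegfa, an angiogenic factor, rose at each time point (0.59, 0.87, 1.00 and 0.78), although the first of these was lost with each rat as a block (adjusted p = 0.35). Vldlr, a lipoprotein receptor, fell after 2 and 10 days (-0.49 and -0.50), and both calls were lost with the block (adjusted p of 0.067 and 0.062). Fgf21 was below the filter.

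Of 11 bZIP partners and other stress factors 10 were tested, and 4, 3, 1 and 1 were higher and 2, 2, 3 and 2 lower in order of time. Over all tested genes 15.4%, 15.6%, 11.7% and 11.1% were higher and 13.5%, 13.3%, 9.64% and 9.46% lower, and most of these counts among 10 genes lie close to that. With the block 4, 2, 2 and 1 were higher and 2, 2, 2 and 0 lower. Nupr1, a small stress-induced chromatin protein, rose at each time point (0.96, 1.47, 1.64 and 1.22, SE 0.16), with 7.64 to 19.8 in the trained against 3.09 to 6.24 in the contralateral muscles. Cebpg, a C/EBP partner of ATF4, fell at each (-0.37, -0.74, -0.55 and -0.41), the last of which was lost with each rat as a block (adjusted p = 0.054). Gadd45a, a growth arrest and DNA damage gene, rose after 2 days (2.07, SE 0.35), with 25.4, 105 and 58.4 in the trained and 4.86 to 24.9 in the contralateral muscles, and after 10 days (0.97), a call lost with the block (adjusted p = 0.38). Sesn1, a relative of Sesn2, fell after 2 and 20 days (-0.86 and -0.45), the second of which was lost with the block (adjusted p = 0.068).

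The endoplasmic reticulum stress list had most of its calls after 2 days, although the difference between time points was not tested for the list. All 14 were tested, and 9 were higher and 1 lower after 2 days, where 15.4% and 13.5% of all tested genes were higher and lower. The fit with each rat as a block had 5 higher and 1 lower. The lower one was Herpud1, and after 10, 20 and 30 days 0 were higher and 1 was lower, Dnajc3, both named after their values were seen. At those times 15.6%, 11.7% and 11.1% of all tested genes were higher and 13.3%, 9.64% and 9.46% lower. The 4 with the largest change were the chaperone partner Sdf2l1 (0.95), the secreted protein Manf (0.88), the co-chaperone Dnajb9 (0.72) and Creld2 (0.64), and all of these also passed with the block. Manf had 22.4, 41.9 and 29.2 in the trained muscles after 2 days and 12.6 to 24.1 in the contralateral ones. The median log2 fold change of the 14 was 0.32 after 2 days and 0.05, -0.10 and -0.06 after that.

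Of 8 mitochondrial stress genes, all tested, 0 were higher at any time point and 2 were lower after 2 and 10 days, where 15.4% and 15.6% of all tested genes were higher and 13.5% and 13.3% lower, so that counts among 8 genes are near those shares. The lower ones were Dele1, whose product carries mitochondrial stress to HRI (-0.38 and -0.50), and the chaperone gene Trap1 (-0.43 and -0.28), which lost its second call with each rat as a block (adjusted p = 0.13). Neither passed after 20 or 30 days.

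Some calls of these pathway genes were lost when 1 muscle was left out, which also makes the group smaller. Without trained replicate 2 of the 2-day group, all genes called at 2 days fell from 3235 to 1513. A lost call therefore does not show that 1 muscle carried it, and Vegfa at 2 days was 0.59 with all muscles. Without trained replicate 2 of the 2-day group, the calls at 2 days were lost for Sdf2l1 (0.68, limma adjusted p = 0.14), Creld2 (0.49, 0.076), Gpt2 (-0.33, 0.19), Cebpg (-0.28, 0.11), Dele1 (-0.22, 0.29), Eif2ak1 (-0.27, 0.10), Vldlr (-0.35, 0.077) and Vegfa (0.64, 0.085). Vegfa at 2 days was also lost without replicate 1 (0.37, 0.23) and Dele1 without replicate 3 (-0.39, 0.056). Without trained replicate 1 of its time point Gdf15 was lost at 10 days (0.72, 0.052) and at 20 days (0.62, 0.11), and Gadd45a at 10 days (0.85, 0.17). Without replicate 2 of the 10-day group Gadd45a (0.90, 0.14), Eif2ak1 (-0.27, 0.074) and Trap1 (-0.24, 0.082) were lost at 10 days. Sesn1 at 20 days was lost without replicate 1 or 2 (-0.46, 0.099 and -0.36, 0.20), Slc3a2 at 20 days without replicate 3 (-0.43, 0.063), and at 30 days Cebpg without replicate 2 (-0.29, 0.092) and Slc1a5 without replicate 1 (0.34, 0.11).

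**Figure D4:**
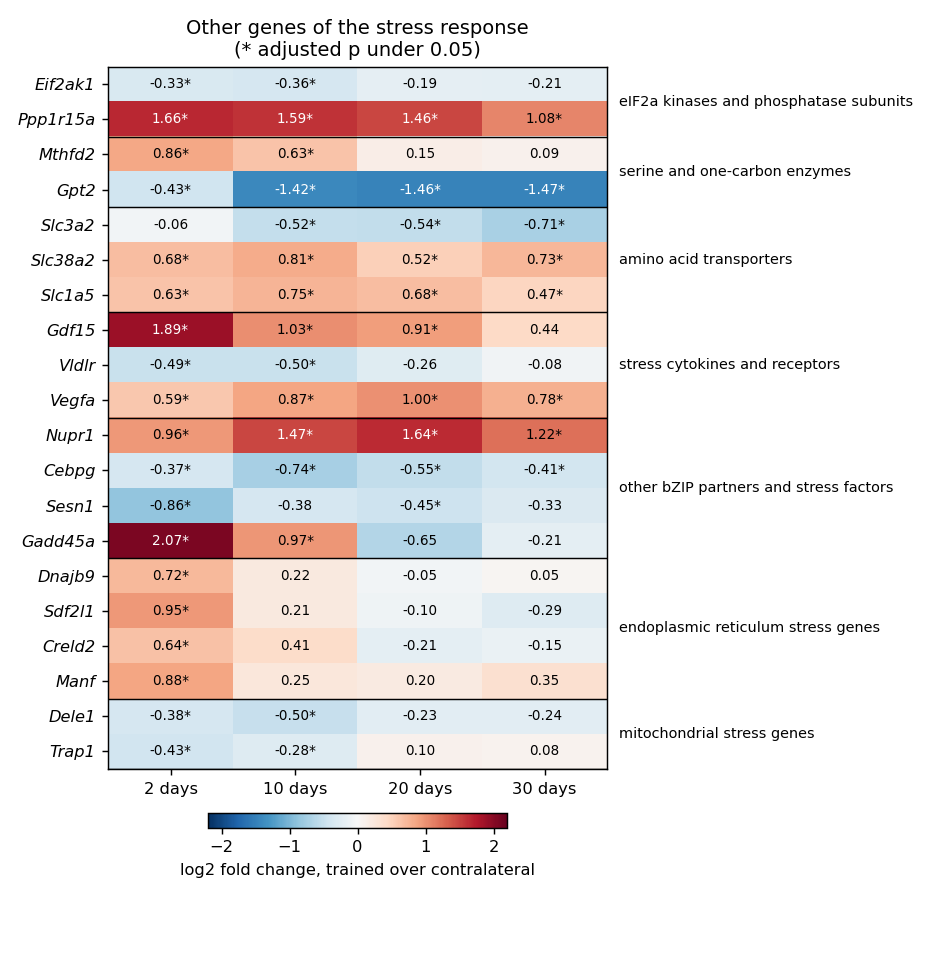
Log2 fold change at 2, 10, 20 and 30 days of the 20 pathway genes named from the lists, trained (n = 3) over contralateral (n = 12) muscles, with a star where the adjusted p was under 0.05. Ppp1r15a, Nupr1, Slc38a2, Slc1a5 and Vegfa carry a star and a positive value at all 4 time points, Gpt2 and Cebpg a star and a negative value at all 4, and the 4 endoplasmic reticulum genes a star at 2 days alone. Mthfd2, Gdf15 and Slc1a5 passed the filter on low values through trained muscles, so their stars are no support for a rise.

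The muscles hold several cell types, and fewer cells of a type and less RNA per cell cannot be told apart in whole muscle. Fibre genes that define the labelled tissue were high in all muscles, with at least 19587 for Acta1 and 7965 for Ckm. Of 4 fibre genes tested, 0, 2, 1 and 1 were higher and 2, 2, 2 and 1 lower in order of time, and with each rat as a block 0, 1, 1 and 1 were higher and 1, 2, 0 and 0 lower. Over all tested genes 15.4%, 15.6%, 11.7% and 11.1% were higher and 13.5%, 13.3%, 9.64% and 9.46% lower. Of 7 macrophage markers 5, 6, 7 and 7 rose in order of time. Their summed value was 21.1 to 55.4 in trained muscles of the first 10 days and 28.3 to 40.8 at 30 days, against 6.87 to 17.9 in the contralateral muscles. Of 5 fibroblast markers 4, 5, 5 and 5 rose, with summed values of 301 to 982 in the trained and 74.6 to 253 in the contralateral muscles. The neutrophil genes S100a8 and S100a9 together were at most 1.53 in the trained and 2.44 in the contralateral muscles. The T-cell gene Cd2 was at most 0.386, with a median of 0 in the contralateral muscles. Mpo, Elane and Cxcr2 of the neutrophil list and Cd3d, Cd3e and Cd3g of the T-cell list had no row. These low values therefore rest on S100a8, S100a9 and Cd2 alone. Of the remaining lists, endothelial markers had 1 of 4 lower after 2 days and 2, 1 and 1 higher after that, and satellite cell markers had 1 of 2 higher after 2 and 10 days, Myf5, which reached 1 in 4 trained and 1 contralateral muscle. Schwann cell markers had 1 of 3 lower after 30 days and adipocyte markers had 0 of 3 called at any time point. Counts in lists of 2 to 4 genes cannot be told from the shares over all tested genes. With each rat as a block, macrophage markers had 7, 6, 7 and 7 higher and fibroblast markers 5, 5, 4 and 4, endothelial markers 0 lower after 2 days and 0, 2, 1 and 0 higher, satellite cell markers 1 higher after 10 and 30 days and 0 after 2, and Schwann cell markers 1 higher and 0 lower after 30 days. The part of these cells in the rise of Atf3, Ddit3 and Nupr1 and in the values of Gdf15 was not tested.

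For each tested member, the genes whose left minus right difference over the 12 rats was most like its own were taken from 3841 genes with a mean of at least 10. The measure was Pearson's r over 12 differences that come from the same 24 libraries, and it is given as a description. For Atf3 these were Slco3a1, St6galnac6 and Btg2 (r of 0.83, 0.82 and 0.81). For Atf4 they were Smtnl2, Mical2 and Psmd11 (0.95, 0.95 and 0.94). For Atf5 they were Txnl4a, Fkbp5 and Tmcc2 (0.80, 0.78 and 0.78). For Ddit3 they were Tmem140, Palmd and Sdc4 (0.86, 0.84 and 0.82). Palmd and Sdc4 were also among the 3 nearest to Ddit4 (0.94 and 0.94), with Ip6k3 (0.94). The Ddit4 differences were -2.84 and -2.08 in the 2 rats with the highest contralateral values and -0.98 to 0.49 in the others. The r values of Ddit4 therefore lean on those 2 rats. For Chac1 they were LOC684270, AABR07035839.1 and Uckl1 (0.84, 0.82 and 0.81), and for Sesn2 they were Clic4, Azin1 and Ccn2 (0.86, 0.84 and 0.82).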

How the data were processed

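RNA from 24 tibialis anterior muscles of 12 rats was sequenced from poly-A libraries. The authors trimmed the reads, aligned them with STAR in Partek Flow to Rnor_6.0 (rn6) and quantified Ensembl transcripts. They deposited a table of 20027 transcripts, named by the authors as normalized counts but with 1 total for all samples and therefore read here as TPM-type values, and a second table, per gene, of signal values for 4635 genes. They also deposited a table of their own comparisons, with p-values, FDR and ratios, which was not used. As neither table holds counts, no count model was run. The paper gives a lower bound on the reads per sample, but the reads behind each value, and the precision they give, are unknown.

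Transcript values were divided by median-of-ratios factors from the 16230 transcripts above 0 in every library and summed per gene symbol. Genes with at least 1 in at least 3 of 24 libraries were kept. limma 3.58.1 (R 4.3.3) was run on log2(value + 1) with 5 groups, the 12 contralateral muscles and 3 trained muscles at each of 4 time points, with Benjamini-Hochberg adjustment and a threshold of 0.05. Trained groups were compared by an F test and 6 contrasts, contralateral groups by an F test in a fit with 8 groups. The authors' methods name median-of-ratios normalization of quantified reads; here such factors were computed from the deposited table, which had already been scaled, so the input differs from theirs. Each contrast was also fitted with the rat as a block, since the labels give both muscles of a rat. Deviations from group means correlated between muscles of a rat (median r 0.17, 12 pairs, 0.03 to 0.34). The median between rats (-0.10) is no separate baseline. Each group of 3 was centred on its own mean, which ties that value to the one within rats.

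Alternatives were the values as deposited, a pseudocount of 0.1, no filter, the rat as a block, time-matched controls, the most abundant transcript per gene, an intensity trend, the gene-level table, and each of 12 trained and 3 contralateral muscles left out. Of 276 pairs of libraries, 0 were identical.

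All 9 members are described. From each other list up to 4 genes with the largest change among those that passed are named. The members and lists were chosen with earlier results of these data known. Genes of the lists with no row under their symbol, such as Cth, Slc7a11 and Pecam1, were not analysed here. Tables and plots were made with Python 3.11.15, numpy 2.4.6, pandas 2.3.3 and matplotlib 3.10.9.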

Additional observations from a re-analysis of the deposited data

Results flagged for a closer look

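Differences between trained groups were found for the following genes of the stress response by a limma test of the difference itself. Atf4 was lower in trained muscle after 10, 20 and 30 days than after 2 days, by a log2 difference of -0.58, -0.79 and -0.71, and its F test over the 4 trained groups gave an adjusted p of 0.00031. With each rat as a block this was 0.037, and the difference between 10 and 2 days no longer passed (-0.72, adjusted p = 0.10), nor did it without trained replicate 2 of the 2-day group or replicate 1 of the 10-day group.

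By the same F test the adjusted p was 0.00053 for Mthfd2, 0.00039 for Gpt2, 0.047 for Slc3a2, 0.011 for Gdf15 and 0.00077 for Gadd45a. It was 0.0094 for Dnajb9, 0.045 for Sdf2l1, 0.0082 for Creld2 and 0.0016 for Trap1. With each rat as a block these 9 no longer passed, with limma adjusted p-values from 0.085 for Gpt2 to 0.46 for Slc3a2, and the genes that passed the F test fell from 1345 to 128. Mthfd2 and Gdf15 passed the filter on low values through trained muscles alone, 3 and 5 of them, so their F tests support no difference. Groups of 3 and of 12 muscles were not searched for single outlying values.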

How the results depend on the processing

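Of 240 counts of genes recomputed under other settings, 216 stayed within 1.5 times the reported count, and of 3180 values of named genes 2983 kept their direction and their side of the threshold, 179 lost the call, 4 gained it and 14 changed sign. All 14 that changed sign were values of Atf5, Ddit4 or Sesn2 that passed neither before nor after, and the cause was not tested. Atf5 became 0.016 at 2 days on the values as deposited, and 0.019 (rat as a block and time-matched controls) and 0.00305 (gene-level table) at 20 days. Ddit4 became 0.28 at 20 days with the rat as a block and with time-matched controls, and Sesn2 became 0.023 at 10 days under both. With a muscle left out, Atf5 at 20 days ran from -0.12 to 0.12, Ddit4 at 2 days from -0.63 to 0.15 (0.11 without contralateral replicate 2 of the 2-day group), and Sesn2 from -0.026 to 0.22 at 2 days, -0.18 to 0.024 at 10 days and -0.10 to 0.0055 at 20 days.

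Genes changed at 2, 10, 20 and 30 days numbered 3235, 3240, 2393 and 2304. With time-matched controls (fewer control samples) they numbered 2007, 1589 and 1121 at 10, 20 and 30 days, with the replicate block of the rat 1377 at 30 days, and in the gene-level table (fewer genes) 1779, 1367, 1061 and 1295. With 1 muscle left out the ranges were 1513 to 3505, 2147 to 3323, 1734 to 2500 and 1472 to 2440, the lowest without trained replicate 2, 1, 2 and 2 of the time point itself, and 1492 genes passed at 30 days without replicate 3. Members changed at 10 days fell from 5 to 3 on the values as deposited and ranged from 3 to 5 with a muscle left out, the lowest without replicate 1 or 3. Members differing among the trained groups rose from 1 to 3 on the values as deposited and to 2 in the gene-level table, with a range of 1 to 2 with a muscle left out, the 2 being without trained replicate 2 of the 30-day group. All genes differing among the trained groups numbered 1345, 2533 on the values as deposited, 128 with the replicate block, and 695 to 1614 with a muscle left out (695 and 785 without replicates 2 and 3 of the 2-day group). Genes differing among the contralateral groups numbered 17 (1012 at an unadjusted p under 0.05), 10 as deposited, 26 with an intensity trend and 12 without contralateral replicate 1 of the 30-day group, and 0 members passed in the fit reported (1, Atf3, at an unadjusted p under 0.05). The replicate block changed no member's call against the contralateral muscles other than those given for Atf4 (adjusted p of 0.052 at 2 days) and Atf5. With 3 rats per time point and no counts, a change in genes listed near 0, such as Trib3 and Asns, cannot be read.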

Other observations

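The 2 contralateral muscles with high Ddit4 were looked at further after their values had been seen. Over the 12 contralateral muscles, the 5 genes most like Ddit4, of 3841 with a mean of at least 10, were Depp1, Nfkbia, Errfi1, Zfp36 and Sdc4, with Pearson's r of 0.96, 0.96, 0.95, 0.95 and 0.93, given as a description that rests on those 2 muscles. Depp1 is known as a FOXO target, Nfkbia encodes the NF-κB inhibitor IκBα, Errfi1 an inhibitor of EGF receptor signalling, and Zfp36 the mRNA decay factor tristetraprolin. Zfp36 had 79.9 and 36.3 in the muscles of rat 2 of the 2-day and rat 1 of the 10-day group and 4.45 to 12.1 in the other 10. Nfkbia had 39.95 and 21.6 there and 5.64 to 11.9 in the others, and Depp1 had 39.8 and 24.2 and 7.17 to 11.7.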
